A study of Mus musculus with 36 samples.

Results

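Embryoid bodies that lack the long noncoding RNA LncCPR were compared at day 8 of differentiation with control embryoid bodies at day 5. The comparison asks whether the knockout at day 8 resembles the mesoderm stage that the control passes at day 5. Members were taken by their labels, and were chosen with earlier results of these data known. They are 3 knockout libraries of day 8 and 3 control libraries of day 5, which are 6 of the 36 libraries in the series. The series follows 2 genotypes over days 0, 3, 5, 8, 10 and 12, with 3 libraries in each of 12 groups. Control cells are AB2.2, a mouse embryonic stem cell line, and the knockout is AB2.2-LncCPR-/-. Both were kept undifferentiated with the cytokine LIF and then differentiated without it as hanging drops, so every day 5 and day 8 library comes from whole embryoid bodies of cells without LIF. The deletion was made with 2 Cas9 constructs that cut on either side of the gene, and cells were sorted singly and genotyped. How many knockout lines stand behind the libraries is not stated. The control libraries of day 8 and the knockout libraries of day 5, 3 each, serve as references. Genotype, 3 days of culture and the deposited table differ together in the main comparison and cannot be told apart there.

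Mouse embryonic stem cells that leave pluripotency in an embryoid body pass through a stage like the primitive streak, the strip of the early embryo from which mesoderm and endoderm arise. The T-box factors Brachyury (T) and Eomes and the factor Mesp1 mark that stage for a short time. Heart progenitors then make Gata4, Hand1, Hand2, Nkx2-5, Isl1, Tbx20 and Mef2c, and the cells that become heart muscle build the sarcomere, the contractile unit of cardiac myosins, actins and troponins. Visceral endoderm, blood vessels, smooth muscle and connective tissue form in the same bodies.

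The values are FPKM, reads per gene scaled for length and library size, for 37561 gene entries. FPKM keeps no read counts, so depth is unknown and values near 0 cannot be given a detection limit. Library sums ran from 331541 to 403675 FPKM over the 6 libraries. The 10 most abundant entries held 30.2% and 25.2% of that sum in knockout day 8 replicates 1 and 3, 23.1% in control day 5 replicate 1, and 12.7% to 13.2% in the other 3. Between replicates, r across genes was 0.966 to 0.969 in knockout day 8 and 0.983 to 0.988 in control day 5, so the knockout group was the more variable. No entry carries the name LncCPR, so the deleted gene itself could not be checked. Nothing in the labels says that replicates came from separate cultures, so the p-values below measure only the spread between these libraries.

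Promoter sequences are shown for T, a defining gene of the streak that was lower than in control day 5, and for 3 sarcomere genes that were higher in knockout day 8. They are RefSeq windows, matched by symbol for 4 of 4 genes, of up to 250 bases before the start site in GRCm38.p6, without annotated exons. Windows were searched on both strands. Capitals mark matches to the T-box with the letters TCACACC, the GATA factor site with the letters AGATAA, the promoter element TATAAA, the CArG box or the MEF2 box. The E-box, written CANNTG, is frequent and is left in lower case.
T, chr17:8434173-8434422, plus strand: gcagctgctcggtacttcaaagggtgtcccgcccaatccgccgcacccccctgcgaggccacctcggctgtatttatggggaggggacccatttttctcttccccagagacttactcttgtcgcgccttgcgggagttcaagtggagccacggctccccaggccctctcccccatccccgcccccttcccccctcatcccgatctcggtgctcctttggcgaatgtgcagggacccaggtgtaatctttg
Tnnt2, chr1:135836084-135836333, plus strand: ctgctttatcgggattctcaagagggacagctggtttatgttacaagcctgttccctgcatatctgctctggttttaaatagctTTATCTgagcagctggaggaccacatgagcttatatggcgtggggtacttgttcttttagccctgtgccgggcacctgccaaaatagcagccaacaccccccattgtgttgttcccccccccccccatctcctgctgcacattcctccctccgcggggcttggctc
Myl7, chr11:5898783-5899032, minus strand: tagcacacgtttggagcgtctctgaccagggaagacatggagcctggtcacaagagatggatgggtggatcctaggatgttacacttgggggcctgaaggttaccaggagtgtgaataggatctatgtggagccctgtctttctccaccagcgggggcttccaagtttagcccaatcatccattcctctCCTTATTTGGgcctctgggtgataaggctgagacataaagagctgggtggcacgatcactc
Actc1, chr2:114052888-114053125, minus strand: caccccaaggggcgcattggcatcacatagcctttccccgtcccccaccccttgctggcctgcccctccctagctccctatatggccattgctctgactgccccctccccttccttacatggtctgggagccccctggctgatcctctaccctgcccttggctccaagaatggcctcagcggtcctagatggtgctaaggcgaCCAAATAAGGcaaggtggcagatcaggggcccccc
The Myl7 and Actc1 windows each hold 1 CArG box, at bases 190 to 199 and 204 to 213 counted from the 5′ end of the run, and the Tnnt2 window holds 1 GATA site on the opposite strand at bases 85 to 90. No printed match overlaps another. Of 32851 RefSeq windows of 250 bases, 1.47% hold a CArG box, 9.99% a GATA site, 3.33% the T-box, 12.4% the element TATAAA, 0.508% a MEF2 box and 66.2% an E-box. The T window holds none of the motifs marked in capitals. A match is a description of the letters, not a binding site.

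The knockout at day 8 did not lie at a single control stage. T, Eomes, Mesp1 and every tested gene of the primitive streak were lower than in control day 5. A group of early heart genes (Kdr, Gata4, Hand1) lay near the control day 5 level and below control day 8. Kdr was also near its level at control days 10 and 12. Most sarcomere genes lay between the 2 control days, and genes of smooth muscle, visceral endoderm and matrix lay far above control day 5 and mostly near control day 8.

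In counts, 12647 genes averaged at least 1 FPKM in the 6 libraries and were tested with limma on log2(FPKM + 1), and 2667 (21.1%) passed an adjusted p of 0.05. Of these, 1476 (11.7% of those tested) were higher and 1191 (9.42%) lower in knockout day 8. More than 2-fold, 617 were higher and 203 lower. The libraries of the 2 groups did not overlap for 4828 of the tested genes (38.2%), so lack of overlap in a single gene is common. The median log2 difference over all tested genes was -0.07. For 10260 genes (81.1%) the 95% interval of the difference lay within 2-fold in either direction, and for 416 it lay wholly beyond 2-fold. These values join 2 tables for which no source says whether they were normalized together. The count fell to 1466 without control day 5 replicate 3 (1069 higher, 397 lower) and to 1682 without control day 5 replicate 2 (1111 higher, 571 lower). Without knockout day 8 replicate 2 it was 3200, with 1410 higher and 1790 lower, so the balance of higher and lower calls rested on single libraries.

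The references put these counts in scale. Within the day 8 table, 417 of 12695 genes (3.28%) differed between knockout and control, 163 (1.28%) higher and 254 (2%) lower in knockout. That count ran from 190 to 661 when 1 library was left out, with 190 without control replicate 2, 209 without knockout replicate 1, 230, 260 and 268 without control replicates 1 and 3 and knockout replicate 2, and 661 without knockout replicate 3. The count of higher genes ran from 51 to 406 in the same fits, and without knockout replicate 3 more genes were higher (406) than lower (255). Within the day 5 table, 1293 of 12447 genes (10.4%) differed between knockout and control. That count was 853 without control replicate 1 and 818 without knockout replicate 3. Between the 2 control days, 5656 of 12676 genes (44.6%) differed, 2045 higher and 3611 lower at day 8, again across tables. After median-ratio rescaling, which moved the median log2 difference of all genes from -0.16 to -0.0092 in this comparison and from 0.13 to 0.0038 at day 5, 52.0% rather than 36.2% of the calls between control days were higher. Libraries of knockout and control at day 8 did not overlap for 2878 of 12695 genes (22.7%). The comparisons share libraries and differ in their spread, so the counts are set side by side and not tested against each other.

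Distance was measured as the median absolute difference in log2(FPKM + 1) between each knockout day 8 library and the mean of each control group, over 13022 genes. To control day 8 it was 0.246 for replicate 1, 0.297 for replicate 2 and 0.189 for replicate 3, and to control day 5 it was 0.307, 0.269 and 0.367. Replicate 2 was thus nearer to control day 5 by this measure, and the other 2 replicates were nearer to day 8. Day 5 was not set apart from the later control days: the mean over the 3 libraries was 0.314 to day 5, 0.328 to day 10 and 0.309 to day 12, and replicate 3 was nearer to day 10 (0.277) and day 12 (0.293) than to day 5. After median-ratio rescaling, all 3 were nearest to day 8, at 0.223, 0.233 and 0.193 against 0.299, 0.271 and 0.310 for day 5. Pearson's r across genes was also highest at day 8 for each library, from 0.960 to 0.972, against 0.927 to 0.935 at day 5. At day 10 r was 0.932, 0.936 and 0.948 for replicates 1 to 3, above the day 5 values of 0.928, 0.935 and 0.927. Control day 8 libraries lay at 0.172 ± 0.033 (SD, n = 3) from the other libraries of their own day, and control day 5 libraries at 0.160 ± 0.039 (SD, n = 3). Genes are not independent replicates, so the distances carry no test.

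**Figure D1:**
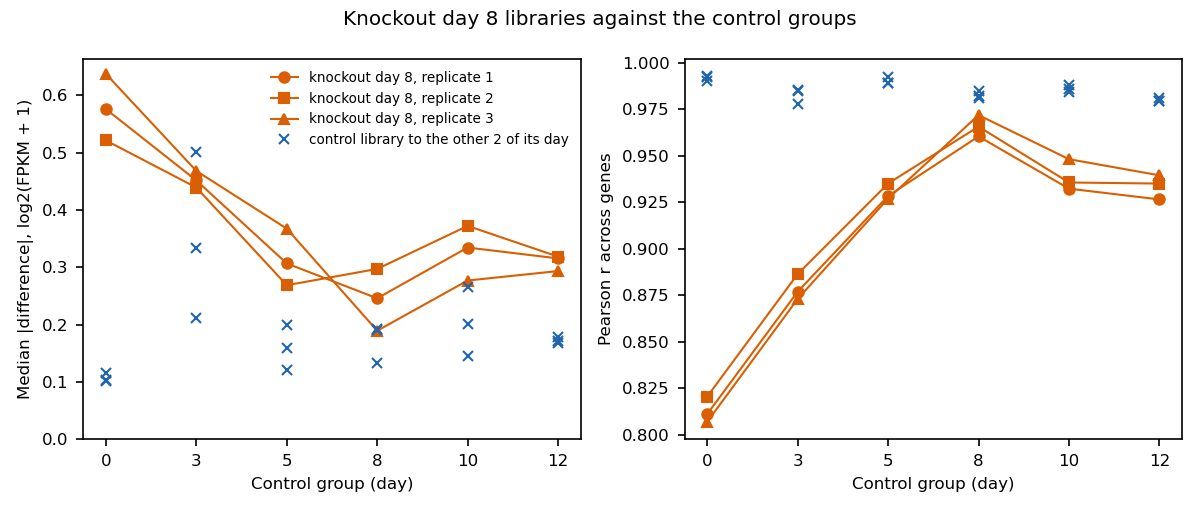
Distance (left, median absolute difference in log2(FPKM + 1)) and Pearson's r across genes (right) of each knockout day 8 library to the mean of the control libraries of each day. Crosses give each control library against the other 2 of its own day; r peaks at day 8 for the 3 knockout libraries, and by distance replicate 2 lies lower at day 5 (0.269) than at day 8 (0.297).

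Of the 37561 entries, 7727 spanned 1 or more in mean log2(FPKM + 1) between control days. Their highest control day mean was at least 1 FPKM, so lower entries are left out. For these, the control day with the nearest mean to the knockout day 8 mean was day 8 for 2717 (35.2%), day 5 for 1596 (20.7%), day 12 for 1254, day 10 for 1022, day 3 for 685 and day 0 for 453. Gene groups differed in this respect. Day 8 was nearest for 12 of 15 streak genes and 14 of 20 visceral endoderm genes. Of 10 epiblast genes, 4 were nearest to day 5 and 0 to day 8. Of 13 genes of calcium handling and ion channels, 5 were nearest to day 5 and 0 to day 8. Of 23 sarcomere genes, 1 was nearest to day 5, 2 to day 8, 8 to day 12 and 6 to day 0. Of 26 early and cardiac mesoderm genes, 7 were nearest to day 5, 7 to day 8, 5 to day 10 and 5 to day 12.

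Of 15 tested primitive streak genes, 15 were lower in knockout day 8 and 0 were higher, against 9.42% lower and 11.7% higher over all genes, with a median log2 difference of -1.41 against -0.07. Wnt3a, the 16th gene listed, was below the filter.

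T (ENSMUSG00000062327.3, chr17:8434423-8442496 in GRCm38), the founding T-box gene of the streak, was listed at 50.6, 81.2 and 60.7 FPKM in control day 5 and at 9.57, 14.9 and 8.85 FPKM in knockout day 8. The groups did not overlap, and the 3 knockout libraries lay far below the lowest control library. Its log2 difference was -2.43 (SE 0.22, adjusted p = 1.69e-05). Control day 8 stood lower still, at 3.09 ± 0.79 FPKM (SD, n = 3), 1.55 below knockout day 8 on the log2 scale (SE 0.22, adjusted p = 0.00394). T in knockout day 8 thus lay between the 2 control days. Knockout day 5 held 125 FPKM, the mean of 3 libraries.

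Eomes, a T-box factor of streak and endoderm, went from 58.4, 73.2 and 80.4 FPKM in control day 5 to 14.3, 17.4 and 12.5 FPKM in knockout day 8, without overlap. The log2 difference was -2.18 (SE 0.17, adjusted p = 6.07e-06), and knockout day 8 was 0.79 above control day 8 (SE 0.15, adjusted p = 0.0235). Mixl1, a homeobox gene of the streak, was listed at 12.4, 16.9 and 16.3 FPKM in control day 5 and at 3.05, 2.80 and 2.75 FPKM in knockout day 8 (log2 difference -2.06, SE 0.16, adjusted p = 4.62e-06). Mixl1 did not pass the test against control day 8 (log2 difference -0.11, adjusted p = 0.783).

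Cer1, a secreted inhibitor of Nodal and BMP from the anterior endoderm, was 2.96 lower on the log2 scale (SE 0.16, adjusted p = 6.61e-07), from 81.7 ± 14.5 to 9.56 ± 1.01 FPKM (SD, n = 3 each). Lhx1, a homeobox gene of the anterior streak, was 2.47 lower (SE 0.15, adjusted p = 1.29e-06). Foxa2, a forkhead factor of axial mesoderm and endoderm, and Sp5, a target of Wnt signalling, were lower by 1.22 and 1.12. In the day 8 table, 3 of 13 tested streak genes were higher in the knockout than in control (T, Eomes and the activin binder Fst, which is named because the count is small), 0 were lower, and the median was 0.46 against 0.09 over all genes. Over all genes, 1.28% were higher there.

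Mesp1 (ENSMUSG00000030544.5, chr7:79792241-79793788 in GRCm38), the factor that marks the first heart-forming mesoderm, was listed at 13.7, 16.9 and 18.1 FPKM in control day 5. In knockout day 8 it was at 0.538, 1.56 and 0.737 FPKM, so the groups lay far apart. Its log2 difference was -3.17 (SE 0.20, adjusted p = 1.39e-06). Control day 8 held 0.637 FPKM and knockout day 5 held 1.32 FPKM, means of 3 libraries each, so the level of control day 5 was met in neither knockout group. Pdgfra, a growth factor receptor of early mesoderm, went from 20.4, 22.5 and 22.4 FPKM to 4.45, 3.77 and 4.41 FPKM (log2 difference -2.13, SE 0.14, adjusted p = 1.43e-06). Unlike T and Eomes, it was also below control day 8, by 1.62 on the log2 scale (SE 0.15, adjusted p = 0.000256). Aplnr, the apelin receptor of migrating mesoderm, was lower by 2.66 (SE 0.15, adjusted p = 8.14e-07).

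**Figure D2:**
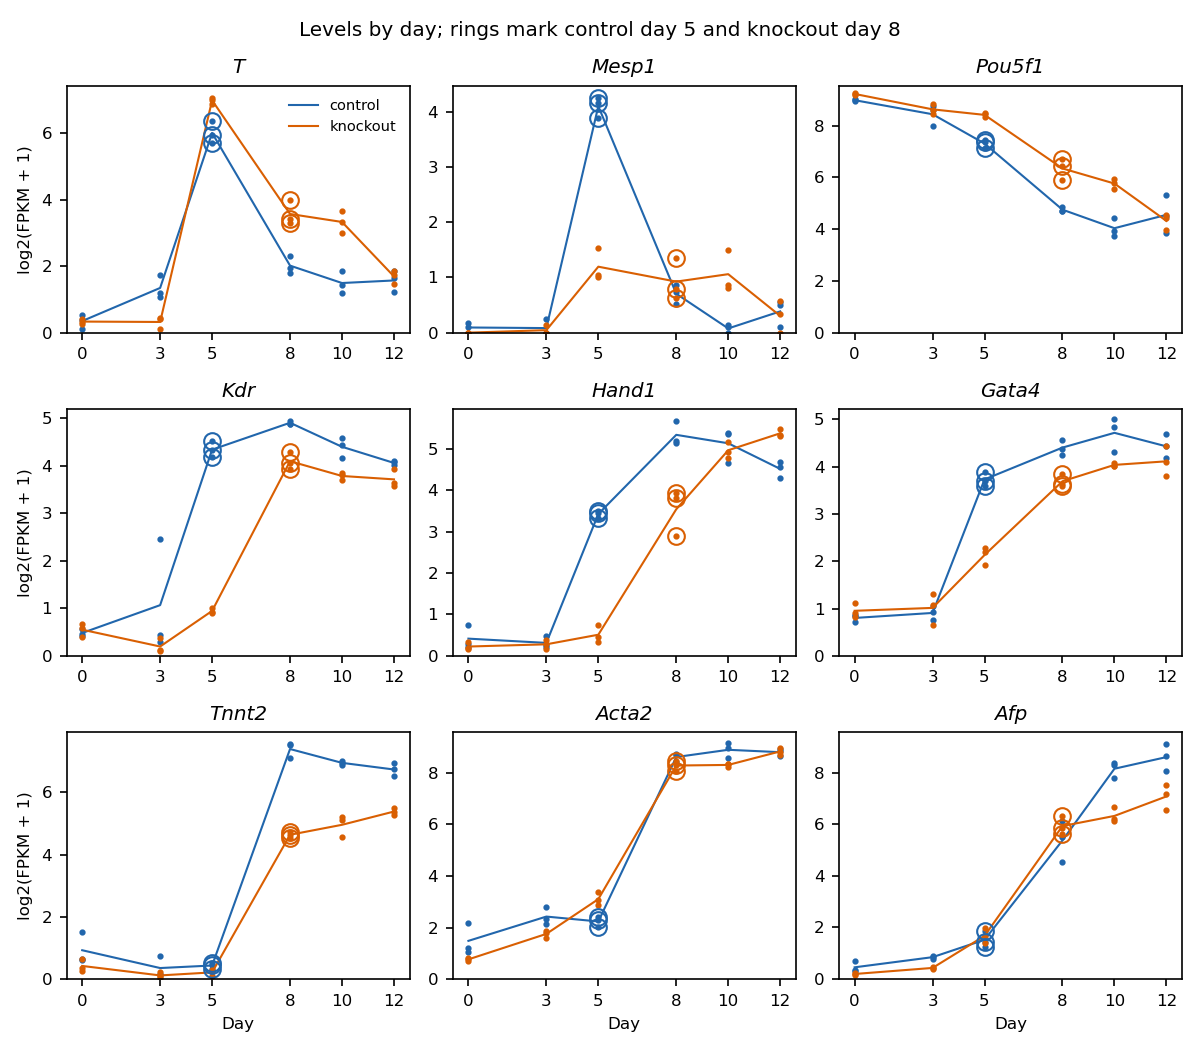
Level of 9 genes, log2(FPKM + 1), by day in control and knockout; points are libraries, lines join group means, and rings mark the 3 control day 5 and 3 knockout day 8 libraries. The rings differ in height for T, Mesp1, Pou5f1, Tnnt2, Acta2 and Afp, and overlap for Hand1, Gata4 and Kdr.

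Of 22 tested genes of pluripotency, 12 were lower than in control day 5, 1 was higher and 9 did not pass (median -0.89). Over all genes, 9.42% were lower and 11.7% higher. Against control day 8, 5 of 22 were higher and 0 lower (median 0.18), where 1.28% and 2% of all genes were. The count of 5 was 2 or 3 when control replicate 1 or 2 or knockout replicate 1 was left out. Pou5f1, the core pluripotency factor Oct4, was listed at 139, 171 and 164 FPKM in control day 5, at 85.5, 105 and 57.9 FPKM in knockout day 8, and at 26.0 ± 1.7 FPKM (SD, n = 3) in control day 8. The 3 groups did not overlap, and the knockout lay in the middle. Its log2 difference was -0.96 to control day 5 (SE 0.21, adjusted p = 0.0091) and 1.59 to control day 8 (SE 0.20, adjusted p = 0.00176).

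Nanog, a partner of Oct4, lay in the middle in the same way: 48.8 ± 7.16 FPKM in control day 5, 22.6 ± 5.86 FPKM in knockout day 8 and 10.3 ± 0.14 FPKM in control day 8 (SD, n = 3 each; log2 differences -1.09 with adjusted p = 0.00201 and 1.04 with adjusted p = 0.0103). Zfp42, a marker of naive cells, was 1.44 below control day 5 (SE 0.16, adjusted p = 7.61e-05) and did not pass against control day 8 (log2 difference -0.12). Sox2, shared by pluripotent and neural cells, did not pass against control day 5: it stood at 28.1, 32.7 and 37.4 FPKM there and at 32.1, 41.5 and 32.4 FPKM in knockout day 8 (log2 difference 0.11, 95% interval -0.25 to 0.46, adjusted p = 0.68). Dppa5a and Tdgf1, genes of pluripotent cells, and Dppa3, of naive and germ cells, were lower by 2.02, 1.97 and 1.41.

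Epiblast genes mark the cells that follow the naive state. Of 10 tested, 6 were lower than control day 5 and 0 higher (median -0.66), where 9.42% and 11.7% of all genes were. Against control day 8, 6 were higher and 0 lower (median 0.85), where 1.28% and 2% of all genes were. Without control replicate 2, 3 were higher than control day 8. Fgf5, a growth factor of the primed epiblast, stood at 61.4 ± 8.19 FPKM in control day 5, 21.9 ± 2.76 FPKM in knockout day 8 and 7.48 ± 0.13 FPKM in control day 8 (SD, n = 3 each). Zic2, a zinc finger factor, and Lef1, a mediator of Wnt signalling, were below control day 5 by 1.38 and 1.07.

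Early heart genes lay below, near and above control day 5. Of 23 tested genes of early and cardiac mesoderm, 12 were higher and 5 lower in knockout day 8 (median 0.63), and 6 did not pass. Over all genes, 11.7% were higher and 9.42% lower. In the day 8 table, 0 of 25 were higher than control and 15 were lower (median -0.84, against 2% lower over all genes). Without the filter on low values, 6 passed as lower.

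Kdr (ENSMUSG00000062960.6, chr5:75932827-75978458 in GRCm38), a VEGF receptor of early mesoderm and vessels, was listed at 19.03, 17.2 and 21.8 FPKM in control day 5 and at 15.6, 14.4 and 18.6 FPKM in knockout day 8. The groups overlapped, and the log2 difference was -0.24 (95% interval -0.58 to 0.09, adjusted p = 0.284). Knockout day 5 held 0.927 FPKM and control day 8 held 29.0 ± 0.77 FPKM (SD, n = 3), which was 0.81 above knockout day 8 on the log2 scale (SE 0.14, adjusted p = 0.0102). Kdr fell again in the control, to means of 20.3 FPKM at day 10 and 15.7 FPKM at day 12. The knockout day 8 mean of 16.2 FPKM lay nearest to control day 12, so its level is not particular to day 5.

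Gata4, a zinc finger factor of heart and endoderm, was at 11.1, 12.0 and 13.9 FPKM in control day 5 and at 13.4, 11.5 and 11.0 FPKM in knockout day 8, with overlapping libraries. The log2 difference was -0.04 (95% interval -0.36 to 0.28, adjusted p = 0.878), which bounds it well within 2-fold. Control day 8 lay higher by 0.71 (SE 0.14, adjusted p = 0.0261), at 20.3 ± 2.4 FPKM (SD, n = 3).

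Hand1, a factor of the left ventricle and extraembryonic mesoderm, stood at 10.3, 9.05 and 10.0 FPKM in control day 5 and at 14.2, 6.39 and 13.1 FPKM in knockout day 8. Replicate 2 lay below the control libraries and the other 2 above them, and the interval of the log2 difference of 0.11 ran from -0.41 to 0.64 (adjusted p = 0.772). Against control day 8, at 40.2 ± 8.9 FPKM (SD, n = 3), Hand1 was 1.80 lower (SE 0.26, adjusted p = 0.00501). Hand2, a partner of Hand1 in the right ventricle, was 0.63 above control day 5 (SE 0.20, adjusted p = 0.0436), with 5.32, 5.60 and 6.97 against 6.93, 11.0 and 12.0 FPKM. Its libraries overlapped, and the call ended in 7 of the alternatives, among them leaving out any control library or knockout replicate 2 or 3. Control day 8, at 36.9 ± 1.9 FPKM (SD, n = 3), was 1.82 above knockout day 8 (SE 0.19, adjusted p = 0.000543).

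Gata6, a factor of endoderm and heart, was below both control days, by 1.18 at day 5 (SE 0.18, adjusted p = 0.000859) and by 1.06 at day 8 (SE 0.18, adjusted p = 0.0122). It stood at 9.99, 13.1 and 15.5 FPKM in control day 5 and at 4.49, 4.67 and 6.07 FPKM in knockout day 8. The 3 knockout libraries lay below every control day 5 library, and control day 8 held 11.8 ± 2.6 FPKM (SD, n = 3).

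Other heart factors had passed the control day 5 level. Isl1, a factor of second heart field progenitors, was listed at 1.80, 1.84 and 2.00 FPKM in control day 5 and at 8.22, 9.39 and 7.76 FPKM in knockout day 8 (log2 difference 1.71, SE 0.15, adjusted p = 1.12e-05). It differed from control day 8 by -0.01 (SE 0.15, adjusted p = 0.984), at 8.54 ± 1.2 FPKM (SD, n = 3) there. The libraries of Isl1 overlapped between knockout and control at day 8. Nkx2-5, the cardiac homeobox gene, was at 0.138, 0.0528 and 0 FPKM in control day 5 and at 3.33, 3.10 and 2.34 FPKM in knockout day 8 (log2 difference 1.88, SE 0.18, adjusted p = 2.7e-05). It did not pass against control day 8 (log2 difference -0.65, SE 0.19, adjusted p = 0.11).

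Mef2c, a factor that switches on muscle genes, went from 0.474, 0.526 and 0.813 FPKM to 7.60, 5.99 and 9.16 FPKM (log2 difference 2.41, SE 0.18, adjusted p = 4.61e-06), and Tbx20, a T-box factor of the heart tube, from 4.32, 4.60 and 4.79 FPKM to 8.25, 9.80 and 10.4 FPKM (log2 difference 0.91, SE 0.14, adjusted p = 0.00113). For both, knockout day 8 lay clear of control day 5 and below control day 8, by 1.67 (SE 0.18, adjusted p = 0.000623) and 1.29 (SE 0.16, adjusted p = 0.00157). Myocd, the coactivator of serum response factor at CArG boxes, was 2.71 above control day 5 and 1.10 below control day 8. Tbx5, a T-box factor of the first heart field, was under the filter, at 0.166 FPKM in control day 5 and 0.516 FPKM in knockout day 8, and 2.37 FPKM in control day 8.

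**Figure D3:**
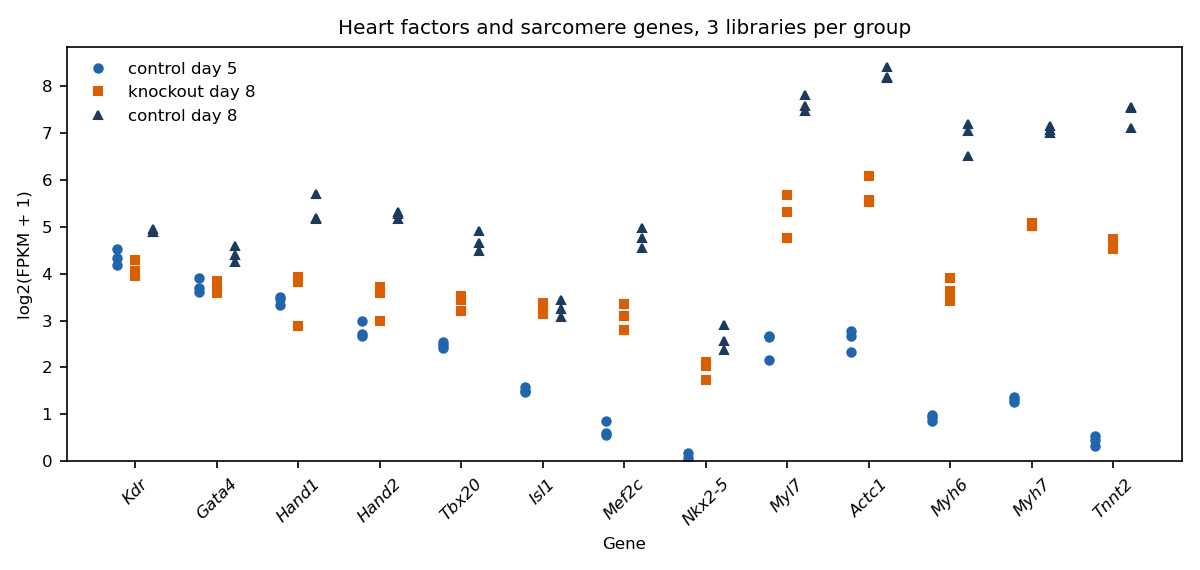
Level of 13 heart genes, log2(FPKM + 1), in the 3 libraries of control day 5, knockout day 8 and control day 8. Kdr, Gata4, Hand1 and Hand2 overlap between control day 5 and knockout day 8, and Isl1 overlaps between knockout day 8 and control day 8. The sarcomere genes from Myl7 to Tnnt2 lie between the control days without overlap.

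Most sarcomere genes were above control day 5 and below control day 8. Of 20 tested, 18 were higher than control day 5 and 0 lower, with a median of 2.23, against 11.7% higher over all genes. Of 22 tested at day 8, 18 were lower than control and 0 higher, with a median of -2.33, against 2% lower over all genes. The summed FPKM of the 23 listed genes was 278 to 314 in control day 5, 1331 to 1834 in knockout day 8 and 2402 to 2914 in control day 8. Whole embryoid bodies were sequenced, so fewer cells of a type and less RNA per cell cannot be told apart here or below. A gene that is near 0 in control day 5 enters the test only if it is raised in knockout day 8, and a gene near 0 in knockout day 8 only if it is high in control day 5. The counts of every list therefore describe it and are no separate support.

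Tnnt2 (ENSMUSG00000026414.6, chr1:135836354-135852260 in GRCm38), cardiac troponin T, was listed at 0.371, 0.249 and 0.446 FPKM in control day 5 and at 23.9, 22.1 and 25.6 FPKM in knockout day 8. The 3 knockout libraries lay close together and far from both control days, with 168 ± 27 FPKM (SD, n = 3) in control day 8. The log2 differences were 4.20 to control day 5 (SE 0.14, adjusted p = 1.89e-08) and -2.75 to control day 8 (SE 0.15, adjusted p = 3.88e-05). Its promoter is the one shown above with a GATA site.

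Myh6 and Myh7, the alpha and beta heavy chains of cardiac myosin, followed. Myh6 was at 0.936, 0.981 and 0.814 FPKM in control day 5 and at 13.9, 9.67 and 11.4 FPKM in knockout day 8 (log2 difference 2.72, SE 0.16, adjusted p = 1.08e-06), while control day 8 held 122 ± 29 FPKM (SD, n = 3). Myh7 was at 1.502, 1.39 and 1.58 FPKM and at 31.3, 33.0 and 32.9 FPKM (log2 difference 3.75, SE 0.13, adjusted p = 2.14e-08), and control day 8 at 132 ± 6.2 FPKM (SD, n = 3). On the log2 scale the distance to control day 8 was -3.26 for Myh6 and -1.997 for Myh7, and both lay between the control days without overlap.

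Actc1, cardiac actin, rose from 5.36, 5.81 and 4.01 FPKM to 46.0, 66.3 and 44.9 FPKM (log2 difference 3.13, SE 0.19, adjusted p = 9.84e-07). Myl7, the atrial regulatory light chain, rose from 3.47, 5.27 and 5.34 FPKM to 26.1, 50.1 and 39.0 FPKM (log2 difference 2.76, SE 0.23, adjusted p = 9.11e-06). These are the genes whose printed promoters hold a CArG box. They were lower than control day 8 by 2.53 and 2.36. Myl4, the atrial essential light chain, was 3.87 above control day 5 and 2.42 below control day 8. Cryab, a small heat shock protein of muscle, was an exception: 3.91 above control day 5 (SE 0.16, adjusted p = 1e-07), and not called against control day 8 (log2 difference 0.59, SE 0.15, adjusted p = 0.0638).

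Of 8 tested genes of calcium handling and ion channels, 3 were higher than control day 5 and 0 lower, against 11.7% and 9.42% over all genes. Without knockout replicate 2, 5 were higher. Slc8a1, the sodium-calcium exchanger, stood at 1.24 ± 0.153 FPKM in control day 5 and 11.0 ± 1.14 FPKM in knockout day 8 (SD, n = 3 each; log2 difference 2.42, SE 0.15, adjusted p = 1.29e-06) and 2.54 below control day 8. Hrc, a calcium binder of the sarcoplasmic reticulum, was higher by 1.01 (adjusted p = 0.000966). The calcium channel gene Cacna1c was higher by 0.78 (adjusted p = 0.0484), a call that ended in 7 alternatives, leaving out any control library or knockout replicate 3 among them. Ryr2, the calcium release channel, was under the filter, at 0.235 and 1.26 FPKM, and 7.40 FPKM in control day 8.

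Smooth muscle genes were far above control day 5 and near control day 8. Of 7 tested, 7 were higher than control day 5 (median 1.24), where 11.7% of all genes were. Against control day 8, 1 was higher and 1 lower (median -0.10), where 1.28% and 2% of all genes were. Acta2, smooth muscle actin, had the highest log2 difference of all tested genes: it was at 4.28, 3.89 and 3.05 FPKM in control day 5 and at 320, 354 and 266 FPKM in knockout day 8 (6.05, SE 0.16, adjusted p = 5.36e-09). Control day 8 held 393 ± 43 FPKM (SD, n = 3), and the difference of -0.33 did not pass (adjusted p = 0.354). Tagln, an actin binder of smooth muscle, was at 21.3 ± 2.97 FPKM in control day 5, 211 ± 37.2 FPKM in knockout day 8 and 119 ± 22 FPKM in control day 8 (SD, n = 3 each). It was above both, by 3.24 (adjusted p = 6.15e-07) and 0.82 (adjusted p = 0.0448). Myl9 and Lmod1, also of smooth muscle, were above control day 5 by 1.88 and 1.24.

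Matrix and mesenchyme genes showed a similar order. Of 18 tested, 13 were higher and 2 lower than control day 5 (median 1.99), where 11.7% and 9.42% of all genes were. Against control day 8, 0 of 20 were higher and 6 lower (median -0.41), where 1.28% and 2% of all genes were. Without control replicate 2, 3 were lower than control day 8. Postn, periostin of connective tissue, went from 0.412, 0.551 and 0.590 FPKM to 25.6, 31.4 and 30.9 FPKM (log2 difference 4.32, SE 0.15, adjusted p = 1.89e-08) and differed from control day 8 by 0.04 (SE 0.17, adjusted p = 0.921). Col1a1, a fibrillar collagen, Has2, a hyaluronan synthase, Vim, the filament protein vimentin, and Vcan, versican, were higher than control day 5 by 2.22, 2.41, 2.29 and 2.22. Of these 4, Vcan was also called against control day 8, lower by 1.41 (adjusted p = 0.000314). Basement membrane genes were higher than control day 5 in 5 of 10, against 11.7% over all genes. Among them were Nid1 (2.31), Col4a2 (2.01), Col4a1 (1.35) and Hspg2 (1.31), which encode nidogen, collagen IV chains and perlecan. At day 8, 0 of 10 were higher than control and 1 was lower, where 1.28% and 2% of all genes were.

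Most endothelial genes were above control day 5. Of 12 tested, 9 were higher, 1 was lower and 2 did not pass (median 1.40), where 11.7% of all genes were higher and 9.42% lower. Against control day 8, 0 were higher and 4 lower (median -0.50), where 1.28% and 2% of all genes were. The count of 4 was 1 or 2 when control replicate 1 or 3 or knockout replicate 1 was left out. Cdh5, the junction protein VE-cadherin, went from 0.138, 0.135 and 0.146 FPKM to 10.2, 9.28 and 10.6 FPKM (log2 difference 3.27, SE 0.15, adjusted p = 1.53e-07), and control day 8 stood at 18.0 ± 1.1 FPKM (SD, n = 3; knockout 0.79 lower, adjusted p = 0.0102). The groups were separate at each step. Emcn, Erg and Esam, a sialomucin, a transcription factor and an adhesion molecule of vessels, were higher by 2.68, 2.46 and 2.28, and Pecam1, the adhesion molecule CD31, by 0.93. The gene that was lower was Sox17, shared with endoderm, at 19.7 ± 1.53 and 4.95 ± 1.16 FPKM (SD, n = 3 each; log2 difference -1.82, adjusted p = 2.2e-05).

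Of 13 blood genes, 2 passed the filter: Runx1, a factor of blood stem cells, and Lmo2, a cofactor of early blood and vessels, higher by 1.96 and 0.82. Hbb-bh1, embryonic beta globin, was below the filter, at 0.0749, 0.131 and 0.105 FPKM in control day 5 and at 0, 0.870 and 0.417 FPKM in knockout day 8. Control day 8 held 15.2 ± 1.5 FPKM (SD, n = 3), so globin was near the control day 5 level in the knockout and 3.55 below control day 8 on the log2 scale (SE 0.23, adjusted p = 3.88e-05).

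Visceral endoderm genes, which include secreted carriers of blood and yolk, were above control day 5 and mostly near control day 8. Of 19 tested, 18 were higher than control day 5 and 1, Gata6, was lower (median 2.46), against 11.7% and 9.42% over all genes. Against control day 8, 0 of 20 were higher and 1, again Gata6, lower (median -0.05), where 1.28% and 2% of all genes were. The summed FPKM of the 20 listed genes was 65.0 to 80.5 in control day 5, 417 to 478 in knockout day 8 and 349 to 675 in control day 8. The knockout range lay within that of control day 8 and clear of control day 5.

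Afp, alpha-fetoprotein, was listed at 1.39, 1.69 and 2.68 FPKM in control day 5 and at 56.4, 77.9 and 48.8 FPKM in knockout day 8 (log2 difference 4.41, SE 0.21, adjusted p = 1.85e-07). Control day 8, at 44.6 ± 23 FPKM (SD, n = 3), did not differ by the test (log2 difference 0.56, SE 0.34, adjusted p = 0.427). The apolipoprotein genes Apoc2, Apoa1 and Apob were higher than control day 5 by 4.02, 3.56 and 3.25 and differed from control day 8 by -0.02, 0.01 and 0.10. Definitive endoderm genes went both ways: of 12, 4 were higher and 6 lower than control day 5, against 11.7% and 9.42% over all genes. Foxa2, Cer1 and Sox17, given above, were lower, while the hormone gene Pyy and the keratin gene Krt19 were higher by 3.89 and 2.05. Pyy was listed at 0 in the 3 control day 5 libraries and at 16.4, 10.6 and 15.2 FPKM in knockout day 8.

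**Figure D4:**
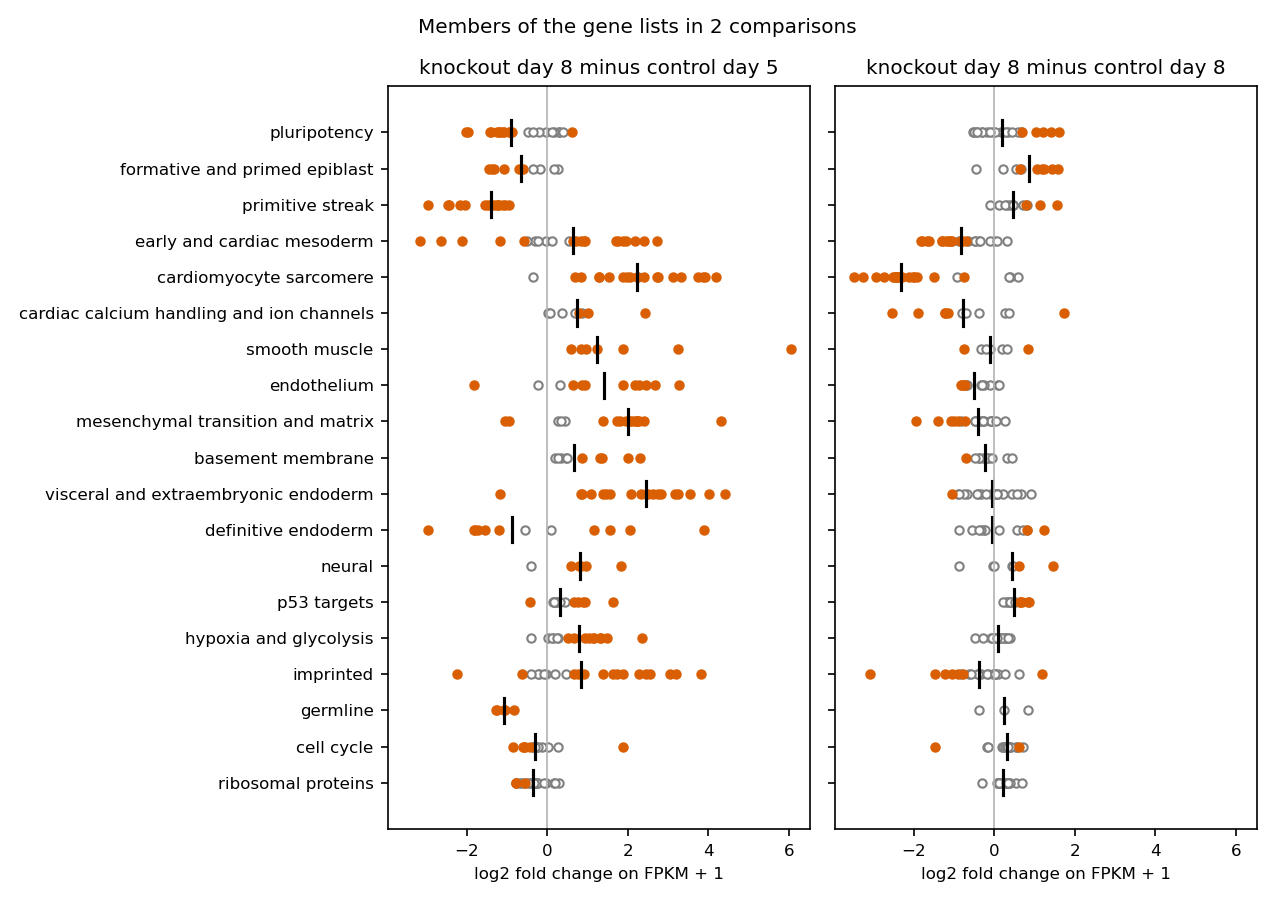
Log2 difference on FPKM + 1 of each tested member of 19 gene lists, for knockout day 8 minus control day 5 (left) and minus control day 8 (right). Filled points passed adjusted p of 0.05, open points did not, and bars mark list medians; streak genes lie left of 0 in the first panel (median -1.41) and sarcomere genes right of 0 there (2.23) and left of it in the second (-2.33).

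Of 10 tested Wnt targets, 6 were lower than control day 5 and 0 higher (median -0.80), among them T, Sp5, Lef1 and the receptor gene Lgr5 (-0.98). Over all genes, 9.42% were lower and 11.7% higher. The control itself made a similar change: 6 of 10 were lower at its day 8 than at day 5 and 2 higher (median -0.67). Of all 12676 genes tested between these control days, 3611 were lower and 2045 higher (median -0.16). Against control day 8, 1 of 10 was higher in the knockout, 0 lower and 9 not called (median -0.09). There, 1.28% of all genes were higher and 2% lower. Of 16 targets of BMP, Nodal and TGF-beta, 9 were higher and 5 lower than control day 5, against 11.7% and 9.42% over all genes. Without control replicate 3, 5 were higher. Between the 2 control days, 10 were higher and 4 lower at day 8, against the same counts over all genes. Knockout and control at day 8 differed for 1 higher and 4 lower genes, where 1.28% and 2% of all genes were, and 11 did not pass. Id2, an inhibitor of differentiation induced by BMP, went from 3.72 ± 0.36 FPKM in control day 5 to 29.7 ± 3.19 FPKM in knockout day 8 (SD, n = 3 each, log2 difference 2.70, adjusted p = 5.1e-07). Its log2 difference to control day 8 was -0.60 (SE 0.13, adjusted p = 0.0424). Lefty2, an inhibitor of Nodal, was lower than control day 5 by 1.53. Of 7 tested Notch genes, 1 was higher and 2 lower than control day 5, against the same shares over all genes, and 4 did not pass. At day 8, 0 of 7 passed between knockout and control, where 3.28% of all genes did. Relative to control day 5, the effector Hey2 was higher by 1.81 and the ligand Dll1 lower by 2.15. Hes1, also a Notch effector, was lower by 0.56, a call that ended without control replicate 2 or 3 or knockout replicate 1 or 3.

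Of 6 tested genes of paraxial mesoderm, the source of the somites, 4 were lower than control day 5 and 0 higher (median -1.25): Dll1, Dll3 (-2.02), the T-box target Msgn1 (-1.27) and the Wnt agonist Rspo3 (-1.23). Over all genes, 9.42% were lower. Between the 2 control days, 4 of 7 were lower at day 8 and 2 higher. Of all 12676 genes tested there, 3611 were lower and 2045 higher. Against control day 8, 2 of 7 were lower in the knockout and 0 higher, where 2% and 1.28% of all genes were. Tbx6 and Meox1, factors of the same tissue, were under the filter, at 1.32 and 0.292 FPKM in control day 5 and 0.360 and 0.353 FPKM in knockout day 8. Of 26 Hox genes, 0 reached the filter.

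Of 6 tested neural genes, 5 were higher than control day 5, against 11.7% over all genes, among them the tubulin gene Tubb3 (1.83), Stmn2 (0.96), the filament gene Nes (0.83) and Sox11 (0.79). In the control line, Tubb3 and Stmn2 had their highest means at day 0, at 13.6 and 120 FPKM, so they do not mark neural cells alone here. Between the 2 control days, 4 of 7 neural genes were higher at day 8 and 2 lower. Of all 12676 genes tested there, 2045 were higher and 3611 lower. Pax6, a defining neural factor, was under the filter, at 0.417 FPKM in control day 5 and 1.13 FPKM in knockout day 8. Control day 8 held 2.82 FPKM of Pax6, and knockout day 8 did not pass against it (log2 difference -0.87, adjusted p = 0.0644). Of 8 trophoblast genes, 4 were higher and 2 lower than control day 5, against 11.7% and 9.42% over all genes. Krt7, Krt18 and Gata3 were higher by 2.29, 0.93 and 1.10, and Eomes was lower. Of 12 epithelial genes, 5 were higher and 0 lower than control day 5, against the same shares over all genes. Among them were Cldn4 at 1.22 and Ocln at 0.80, both of tight junctions. Between the 2 control days, 7 of 9 trophoblast genes were higher at day 8 and 2 lower, against the same counts over all genes. Of 12 epithelial genes, 5 were higher and 4 lower in that comparison, where 2045 and 3611 of all 12676 tested genes were.

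Of 13 p53 targets, 5 were higher and 1 lower than control day 5 (median 0.31), against 11.7% and 9.42% over all genes, and 8 were higher after median-ratio rescaling. Cdkn1a, the cell cycle inhibitor p21, went from 3.47, 2.97 and 1.86 FPKM to 11.8, 7.31 and 13.5 FPKM (log2 difference 1.64, SE 0.23, adjusted p = 0.00049). Ccng1, Eda2r and Perp were higher by 0.76, 0.88 and 0.92, and each was also above control day 8, by 0.86, 0.83 and 0.64. Against control day 8, 5 of 13 were higher, where 1.28% of all genes were. That count was 1 without control replicate 1 and 2 without knockout replicate 2. Of 16 genes of hypoxia and glycolysis, 10 were higher than control day 5 and 0 lower, against the same shares over all genes. Among them were the peptide hormone gene Adm (2.35), the collagen hydroxylase gene P4ha2 (1.48), Vegfa (1.33) and Bnip3 (1.32). Between the 2 control days, 9 of 16 were higher at day 8 and 1 lower. Of all 12676 genes tested there, 2045 were higher and 3611 lower. The median of these 16 genes against control day 8 was 0.09. Of 14 stress genes, 4 were higher than control day 5, against 11.7% over all genes: Atf3 (1.83), Ddit3 (1.60), Fos (1.00) and Xbp1 (0.54), the last of which lost its call without any control library or without knockout replicate 1 or 2. Between the 2 control days, 8 of 14 were higher at day 8 and 0 lower, against the same counts over all genes. Against control day 8, 0 of 14 were higher in the knockout and 1 lower, where 1.28% and 2% of all genes were.

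The counts of the housekeeping lists moved with single libraries. Of 18 cell cycle genes, 5 were lower than control day 5, against 9.42% over all genes, with the replication helicase genes Mcm6 (-0.84), Mcm3 (-0.61) and Mcm2 (-0.58). Between the 2 control days, 14 of 18 were lower at day 8 and 1 higher. Of all 12676 genes tested there, 3611 were lower and 2045 higher. Knockout and control at day 8 were not called apart for 16 of 18, where 3.28% of all genes were called. The count of 5 was 0 without control replicate 3, 1 without control replicate 2 or knockout replicate 1, and 3 without knockout replicate 3. The inhibitor gene Cdkn1c was higher than control day 5 by 1.87, while its log2 difference to control day 8 was -1.48. Of 20 ribosomal protein genes, 3 were lower, a share near the 9.42% of all genes: Rpl3 (-0.79), Rps2 (-0.78) and Rpl10a (-0.56). The count was 1 without control replicate 1 or 3 or knockout replicate 3, and 9 without knockout replicate 2. Of 13 mitochondrial transcripts, 4 were higher, against 11.7% over all genes: mt-Nd6 from 435 ± 31.1 to 1094 ± 183 FPKM (SD, n = 3 each, log2 difference 1.32, adjusted p = 0.00105), mt-Nd2 (0.77), mt-Nd4 (0.64) and mt-Co2 (0.57). That count was 2 without control replicate 2 and 1 without control replicate 3 or knockout replicate 1, and 7 after rescaling. The summed mitochondrial FPKM was 25713 to 109131 in knockout day 8 and 24904 to 45827 in control day 5, so the knockout group spanned the wider range. Its part in the other values was not tested.

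Imprinted genes, which are read from 1 parental copy, were higher than control day 5 in 13 of 22 and lower in 2 (median 0.84), against 11.7% and 9.42% over all genes. Between the 2 control days, 15 of 22 were higher at day 8 and 2 lower. Of all 12676 genes tested there, 2045 were higher and 3611 lower. Against control day 8, 1 of the 22 was higher in the knockout, 6 were lower and 15 did not pass. There, 1.28% of all genes were higher and 2% lower. Igf2, the paternally expressed growth factor, went from 41.9, 34.96 and 42.4 FPKM in control day 5 to 579, 512 and 646 FPKM in knockout day 8 (log2 difference 3.83, SE 0.17, adjusted p = 1.13e-07). It was near control day 8, at 771 ± 40 FPKM (SD, n = 3; log2 difference -0.42, adjusted p = 0.262). Its neighbour H19, the maternally expressed RNA, was not called against control day 5: it was at 16.7, 14.6 and 22.6 FPKM in control day 5 and at 32.7, 17.6 and 14.6 FPKM in knockout day 8 (log2 difference 0.19, 95% interval -0.38 to 0.77, adjusted p = 0.636). Control day 8 held 183 ± 17 FPKM (SD, n = 3), 3.10 above knockout day 8 (SE 0.25, adjusted p = 0.00011). Of the pair of neighbours, Igf2 was thus called against control day 5 alone and H19 against control day 8 alone. Nnat, Plagl1 and Airn were higher than control day 5 by 3.19, 3.05 and 2.55, and Phlda2 was lower by 2.26.

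Of 12 germline genes, 5 passed the filter, some of them through their level in control day 5 (Mael at 1.85 against 0.353 FPKM), so that low members could enter only as lower. These 5 were lower than control day 5: the helicase gene Ddx4 (-1.27), Sycp3 of the meiotic axis (-1.26), Mael (-1.07), Tex19.1 (-1.04) and Tdrd12, named because it completes the count. Over all genes, 9.42% were lower. Between the 2 control days, 5 of 5 tested were also lower at day 8. Of all 12676 genes tested there, 3611 were lower. Knockout and control at day 8 were not called apart for any of 3 tested, where 3.28% of all genes were called. Of 3 tested genes on the Y chromosome, Ddx3y was higher by 0.56 (SE 0.17, adjusted p = 0.039), at 13.9, 18.9 and 17.4 FPKM in control day 5 and 25.4, 29.6 and 20.8 FPKM in knockout day 8. That call ended without any control library, and without knockout replicate 1 or 2.

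4930500J02Rik (ENSMUSG00000086454.1, chr2:104559163-104571429 in GRCm38), a RIKEN transcript, was at 18.7, 23.3 and 24.1 FPKM in control day 5 and listed at 0 in each knockout day 8 library (adjusted p = 1.89e-08). It held 0.0932 FPKM in knockout day 5 and 9.33 ± 0.99 FPKM (SD, n = 3) in control day 8. Genes on chromosome 1 were shifted as a group: their median log2 difference was -0.27 over 690 tested genes, 0.21 below the median of all others, with 171 lower and 58 higher. On the other autosomes this shift lay between -0.02 and 0.07. Tnnt2, Mixl1, Sox17, Igfbp5, Lmod1, Atf3, Lefty2, Mcm3, Mcm6, Mael and 1700009P17Rik are on chromosome 1; the part of that shift in their values was not tested.

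The remaining genes with the highest differences were Igfbp5, a binder of insulin-like growth factors (5.39), Anxa1, an annexin (4.67), Thbs1, thrombospondin of the matrix (4.66), Ankrd1, a stress-responsive muscle protein (4.55), and Akap5, a kinase anchor (4.34). Igfbp5 was at 2.71, 2.86 and 2.39 FPKM in control day 5 and at 165, 140 and 152 FPKM in knockout day 8, and its mean in control day 8 was 148 ± 14 FPKM (SD, n = 3). Of these 5, Anxa1 also passed against control day 8, higher by 1.13 (SE 0.19, adjusted p = 0.0114). Gm15564 was among the highest as well (4.73), but ran from 46.1 to 166 FPKM within the knockout, and Gm10800 among the lowest (-2.34), with 956 to 8679 FPKM in control day 5. The remaining genes among the lowest were Foxj1, a factor of ciliated cells (-2.35), and 1700009P17Rik (-2.29).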

How the data were processed

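The 3 knockout day 8 and 3 control day 5 libraries were made from total RNA of whole embryoid bodies (RNeasy) with the ScriptSeq Complete Gold kit, per the labels' protocols, which name a HiSeq instrument other than the one in the series' design text. The authors deposited FPKM per gene as 1 table per day. TopHat, Cufflinks and the build mm9 are named per the submitters' processing notes; versions, settings, annotation and any scaling between tables are not given in the sources used here. Columns were grouped by genotype and day and the tables joined on the gene identifier. Genes averaging at least 1 FPKM in the 6 libraries of a comparison were tested on log2(FPKM + 1) with limma 3.58.1 in R 4.3.3 (lmFit, eBayes with trend, two-sided, Benjamini-Hochberg adjustment over all genes tested, threshold 0.05), and the fit was tested on simulated data. A fold change on FPKM + 1 understates the change of low genes. Alternatives were median-ratio rescaling, quantile normalization, a pseudocount of 0.1, no filter, a replicate block, 1 fit of all 36 libraries, leaving out each library, and leaving out chromosomes 1, 6 and 8. Counts of list members under each alternative were added after the data were seen.

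The members and the 30 gene lists (444 genes, of which 2, Sox1 and Kcnq1ot1, matched no entry) were chosen with earlier results of these data known. Genes named are a panel of 38, the 10 highest and 10 lowest called differences without overlap and with 5 FPKM or more in the higher group, and up to 4 called members of each list with the largest difference; others are said to be outside this rule. Of the genes this rule takes, 2 are counted with their lists but not reported here by name. Positions come from GENCODE on GRCm38 by Ensembl identifier, which matched 32616 of 37561 entries, and promoters from RefSeq on GRCm38.p6; no coordinate was converted from mm9. Python 3.11.15, pandas 2.3.3, numpy 2.4.6 and matplotlib 3.10.9 were used.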

Additional observations from a re-analysis of the deposited data

How the results depend on the processing

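Of 131 named genes tested between knockout day 8 and control day 5, 112 kept their direction and their side of the threshold in every alternative run for them; 21 of the 131 are on chromosomes 1, 6 and 8 and have no value in the alternative without these. The calls of Hand2, Cacna1c, Ddx3y, Hes1, Xbp1, Gm10800, Mcm2, Mcm3, Mcm6, Rps2, Rpl10a, mt-Nd2, mt-Nd4 and mt-Co2 ended in some, and that of Pou5f1 without the filter. Signs turned for 4 genes that were not called. Gata4 was at 0.026 after rescaling, and when 1 library was left out Gata4 ran from -0.12 to 0.044, H19 from -0.13 to 0.42, Hand1 from -0.076 to 0.44 and Sox2 from -0.011 to 0.20. The 2667 calls became 4015 (1834 higher, 2181 lower) with quantile normalization and 1466 to 3200 when 1 library was left out. The 417 calls at day 8 became 730 with rescaling, 686 with quantile normalization, 1211 (648 higher, 563 lower) in 1 fit of 36 libraries, 136 without the filter and 190 to 661 when 1 library was left out. The 1293 calls at day 5 became 424 without the filter and 818 to 988 when 1 library was left out; 68.1% of the 1293 were higher, and 42.8% after rescaling. With genes of 5 FPKM or more, the mean distance was 0.435 to control day 3 and 0.289 to control day 12. Same-numbered libraries deviated together with correlations of 0.048, 0.309 and -0.088 across genes, and differently numbered ones with -0.289 to 0.240. So few values cannot show whether the numbers pair the libraries. With the replicate block 2711 genes were called. The cause of these changes was not tested. FPKM gives no counts, so no limit that needs depth is given.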

Other observations

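Some genes in knockout day 8 lay outside the whole control course. Of 37561 entries, 35 averaged 5 FPKM or more in knockout day 8 with each library above all 18 control libraries of days 0 to 12. A further 5 held 5 FPKM or more in every control library, with each knockout day 8 library below all of them. The 2 rules differ, and many of the 37561 entries are too low to meet either, so 35 and 5 are not compared. Among the 35, the gap in log2(FPKM + 1) from the highest control to the lowest knockout library ran from 0.0015 to 0.48. The genes named here were chosen after their values were seen, and membership was set by these values, so no test is given. Acta1, skeletal muscle actin, was listed at 37.5, 40.7 and 27.8 FPKM in knockout day 8, while the highest control library held 20.1 FPKM. Vgll2, a cofactor of muscle genes, was at 14.4, 14.9 and 12.7 FPKM against a control maximum of 9.75 FPKM. Hesx1, a homeobox gene of the anterior embryo, was at 6.97, 6.29 and 3.74 FPKM against 2.40 FPKM, and Bmp2, a ligand of the BMP pathway, at 12.8, 12.2 and 11.7 FPKM against 10.3 FPKM. Nes lay at 24.2 to 26.6 FPKM against 17.9 FPKM, and its mean in knockout day 5 was 36.4 FPKM.

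The 5 genes below the control course by this rule were 4930500J02Rik, Srl, Mreg, BC031781 and D14Abb1e. Srl, sarcalumenin of the muscle sarcoplasmic reticulum, was at 4.88, 5.26 and 2.89 FPKM in knockout day 8, and the lowest control library held 7.08 FPKM. Mreg, melanoregulin, was at 3.804, 5.002 and 3.72 FPKM against a control minimum of 5.81 FPKM. Knockout day 5 held 10.4 FPKM of Srl and 6.62 FPKM of Mreg, means of 3 libraries, so neither was below the control minimum there. BC031781 and Mreg are on chromosome 1, where the median difference to control day 5 was lower, and the part of that shift was not tested.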
